A study of Mus musculus with 12 samples.

Results

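MIM-treated astrocytes were compared with neural stem cells, using 6 of the 12 mouse RNA sequencing libraries of the study, 3 in each group. The neural stem cells (NSC) came from cortex of C57BL/6 embryos at embryonic day 14.5 and grew as neurospheres, free-floating clusters of dividing progenitors, in Neurobasal medium with B27, EGF and FGF2, both at 20 ng/mL, and were used within 3 passages. MIM-Astrocytes carry the same strain, tissue and age labels. By the protocol, adherent astrocytes that had matured in medium with 10% serum were washed and moved to MIM, a serum-free medium with B27, N2, FGF2 at 20 ng/mL and up to 6 metabolites: cysteine, glycine, methionine, putrescine, S-adenosylmethionine and threonine. Which of these metabolites the libraries received, on which day up to the fifth they were collected, and whether the astrocytes came from GLAST-sorted postnatal cortex or from differentiated neurospheres is not stated for these libraries. The groups therefore differ in EGF, supplements, metabolites, adherence and history at once, and these cannot be told apart. Every gene that reached 1 FPKM (fragments per kilobase of transcript, scaled to the mapped fragments of the library, a level per length) in at least 3 of the 6 libraries was compared, which gave 15110 genes, 11595 of them protein coding, out of 53932 identifiers. Levels in the 3 Astrocytes libraries, the same kind of cell kept in 10% serum, are given beside some results as a description.

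Cortical neural stem cells are kept dividing by EGF and FGF2 and are recognised by the transcription factor Sox2, the intermediate filament nestin (Nes) and the EGF receptor. Notch signalling, in which ligands such as Dll1 on one cell raise Hes factors in its neighbour, holds them undifferentiated, and cultures of them also contain early neuronal and oligodendrocyte progenitors. Astrocytes share part of this programme (Sox9, Slc1a3, Fabp7) and add genes for water, potassium and glutamate handling. One-carbon metabolism passes methyl and formyl groups from serine, glycine and methionine to nucleotides, proteins and DNA, and S-adenosylmethionine is its methyl donor.

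The 6 libraries were alike in how many genes they detected: 14566 to 14739 genes reached 1 FPKM in MIM-Astrocytes and 14764 to 14919 in NSC. Summed FPKM ran from 665449 to 795257 and from 734241 to 812381, and protein-coding genes made up 47.52% to 51.72% and 39.84% to 45.87% of it. The files give no read counts. The intervals deposited with each value correspond to about 13451338 to 14728588 fragments per MIM-Astrocytes library and 11475918 to 12084937 per NSC library. For genes near 10 FPKM the upper end of the interval lay 8.66% to 10.15% above the value, as the median of a library. This is the reach of the interval and not a standard error. Differences are given on the log2(FPKM + 1) scale as MIM-Astrocytes minus NSC, with the standard error, and a gene is called at a Benjamini-Hochberg adjusted p below 0.05 in limma over all genes tested. A value of 1 on this scale is a 2-fold difference, and the added 1 makes differences of genes below a few FPKM smaller than their ratio. Whether replicate libraries stem from independent cultures is not stated, so the p-values measure the spread between these libraries, which may be technical.

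MIM-Astrocytes and NSC differed in a large share of the genes but mostly by small amounts. Of the 15110 genes, 8996 were called (59.5%), 4984 of them higher in MIM-Astrocytes (33.0%) and 4012 lower (26.6%). A difference of at least 2-fold was reached by 1677 of the called genes (11.1%), with 1061 higher (7.02%) and 616 lower (4.08%), and the 3 libraries of one group lay wholly outside those of the other for 9754 genes (64.6%). The median difference over all genes was 0.025. A gene below 1 FPKM in every library of one group could enter only through the other group and so had to be higher there. This holds for 381 genes low in NSC and 410 low in MIM-Astrocytes, and where a list has 3 or more such members its counts are also given without them. Other lists hold fewer such members, whose direction was fixed in the same way. Among them are Nupr1, Klf4, Hhip, Gsx1, Abcg1, Ogn, Efnb3, Sdsl and Thbs1. Since most genes are called, the size of a difference is given beside each call. A list with shares near 33.0% higher and 26.6% lower is called about as often as all genes.

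**Figure D1:**
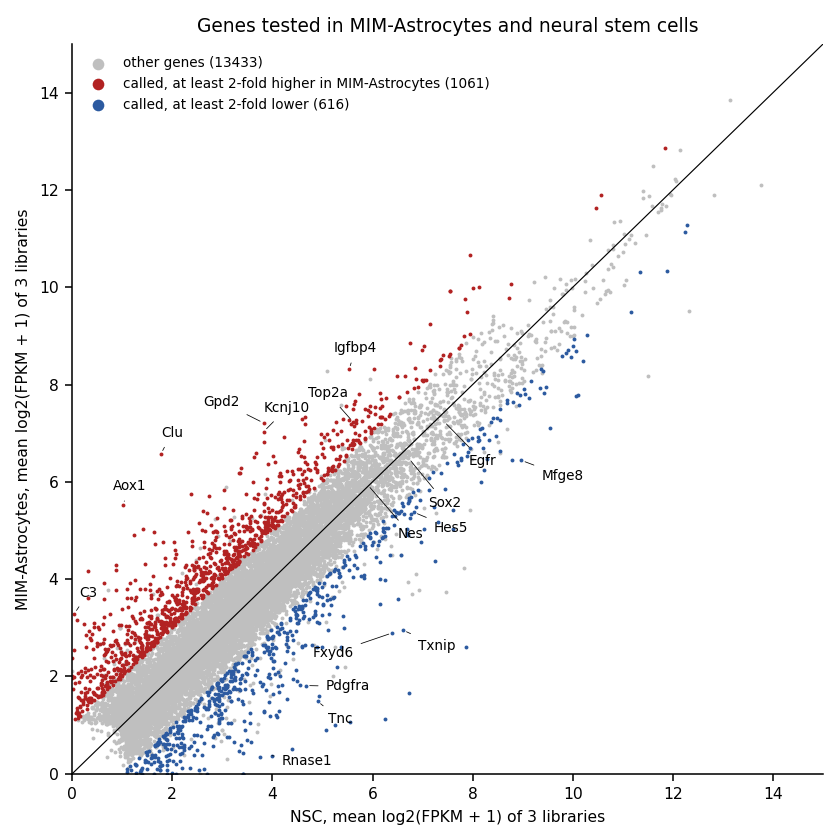
Mean level of each gene in the 3 NSC libraries (horizontal) and the 3 MIM-Astrocytes libraries (vertical), both as log2(FPKM + 1), with equality as the diagonal line; red points are the 1061 called genes at least 2-fold higher in MIM-Astrocytes and blue points the 616 at least 2-fold lower. Sox2, Nes and Egfr lie close to the diagonal, Clu, Aox1 and C3 far above it, and Txnip, Tnc and Rnase1 far below.

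Nes, Pax6, Fgfr3 and Ezh2 stood at similar levels in both groups. Among other genes of neural stem cells, Fabp7 was called higher and Hes5 and Prom1 at least 2-fold lower, as given below. Nes, the intermediate filament nestin, measured 63.1, 60.4 and 58.3 FPKM in MIM-Astrocytes and 60.6, 62.5 and 53.1 in NSC, and the groups overlapped. Its difference was 0.05, with a 95% interval of -0.13 to 0.22. Pax6, a transcription factor of cortical progenitors, measured 15.3, 17.6 and 17.1 FPKM in MIM-Astrocytes and 17.8, 18.8 and 16.9 in NSC, again overlapping, with an interval of -0.27 to 0.08; it was called lower after quantile normalization at -0.21 and after removal of mitochondrial genes and small RNAs at -0.17. Fgfr3, a receptor of FGF2 present in progenitors and astrocytes, was at 84.6, 99.3 and 96.3 FPKM in MIM-Astrocytes and 96.8, 93.1 and 93.8 in NSC, with an interval of -0.18 to 0.14. Ezh2, a histone methyltransferase gene of dividing progenitors, was at 37.6, 29.8 and 33.6 FPKM in MIM-Astrocytes and 34.3, 33.5 and 35.1 in NSC (-0.23 to 0.17).

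Sox2, Egfr and Olig2 did not pass the threshold, with means slightly under those of NSC. Sox2, the transcription factor that maintains progenitors, was at 90.4, 92.1 and 84.7 FPKM in MIM-Astrocytes and 107, 112 and 94.3 in NSC, every MIM-Astrocytes library below every NSC library. The difference of -0.22 (95% interval -0.43 to -0.02, adjusted p = 0.0606) did not pass the threshold, though after median-of-ratios scaling it was -0.27 and called, after quantile normalization -0.32 and called, without NSC replicate 3 -0.29 and called, and it was also called with array weights and after removal of mitochondrial genes and small RNAs. Egfr, the EGF receptor, measured 138, 150.03 and 166 FPKM in MIM-Astrocytes and 167, 173 and 171 in NSC (interval -0.33 to -0.02, adjusted p = 0.0515). It passed without MIM-Astrocytes replicate 3 at -0.24, after median-of-ratios scaling at -0.22 and after removal of mitochondrial genes and small RNAs at -0.26. Olig2, a factor of ventral and glial progenitors, measured 88.4, 99.7 and 96.7 FPKM in MIM-Astrocytes and 104, 111 and 97.7 in NSC, overlapping (interval -0.27 to 0.01, adjusted p = 0.095), and was called lower in 5 alternatives at -0.139 to -0.225, among them the fit without NSC replicate 3. In Astrocytes, Egfr stood at 19.7, 20.4 and 19.7 FPKM and Olig2 at 3.71, 3.56 and 3.62, whereas Sox2 was at 60, 68.5 and 54.5 and Nes at 43, 47.7 and 39.7.

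Over the list of 27 tested neural stem and progenitor genes, 7 were called higher and 7 lower, beside 33.0% and 26.6% of all genes tested. The other 13 were not called, and the median was -0.04. The genes called higher were moderately so and include several shared with astrocytes. Fabp7, a fatty acid carrier of radial glia, measured 4037, 4259.7 and 3876 FPKM in MIM-Astrocytes and 2904, 2763 and 2422 in NSC (0.59 ± 0.13, adjusted p = 0.00285), a call lost with replicate number as a block (adjusted p = 0.0925). Slc1a3, the glutamate transporter GLAST that the postnatal astrocyte protocol sorts on, measured 705, 965 and 910.4 FPKM in MIM-Astrocytes and 577, 586 and 509 in NSC (0.61 ± 0.12, adjusted p = 0.00162). Ptprz1, a receptor phosphatase, differed by 0.61 ± 0.09, adjusted p = 0.000169 and the adhesion gene Cdh2 by 0.41 ± 0.04, adjusted p = 2.06e-05. Of the 7 lower genes, 3 were at least 2-fold lower: the matrix protein gene Tnc, the Notch target Hes5 and Prom1, which encodes the surface protein CD133.

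Tnc, which encodes the extracellular matrix protein tenascin C, gave the widest gap of that list. It was at 1.67, 1.9 and 1.87 FPKM in MIM-Astrocytes and 28.7, 30.3 and 27.7 in NSC, a 15.9-fold lower mean (-3.41 ± 0.05, adjusted p = 8.23e-11), while Astrocytes were at 40.9, 43.1 and 40. Prom1 measured 2.79, 2.37 and 1.73 FPKM in MIM-Astrocytes and 7.11, 8.05 and 8.19 in NSC (-1.43 ± 0.13, adjusted p = 5.19e-06). MIM-Astrocytes were thus below both other cultures in Tnc and in Prom1, for which Astrocytes were at 8.92, 7.85 and 6.8.

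Notch pathway genes were more often lower than higher in MIM-Astrocytes: of 21 tested, 12 were called lower and 4 higher, with a median of -0.35. Among the ligands, Dll1 measured 35.6, 45.1 and 43.9 FPKM in MIM-Astrocytes and 80.1, 86 and 78.7 in NSC (-0.96 ± 0.09, adjusted p = 4.61e-06). Dll3 measured 4.83, 5.06 and 5.41 FPKM in MIM-Astrocytes and 15.4, 16.4 and 14.7 in NSC (-1.44 ± 0.06, adjusted p = 3.84e-08). Neither overlapped between groups, and Astrocytes stood at 1.83, 1.82 and 2 for Dll1. Among receptors the picture was mixed. Notch1 measured 41.5, 41.9 and 44.8 FPKM in MIM-Astrocytes and 37.1, 38.3 and 37.8 in NSC and was not called (interval -0.04 to 0.4), though it was called higher in the 6 libraries alone and with array weights, and Notch3 was higher in MIM-Astrocytes (1.02 ± 0.08, adjusted p = 2.8e-06). The Notch modifier Mfng, a glycosyltransferase, differed by -1.75 ± 0.1, adjusted p = 1.58e-07. Of the targets, Hes5 measured 35.9, 45.3 and 40.8 FPKM in MIM-Astrocytes and 114, 125 and 99.2 in NSC (-1.45 ± 0.1, adjusted p = 8.12e-07), about a 2.77-fold lower mean than in NSC, Hes1 differed by -0.6 and Hey2 by -0.95 ± 0.08, adjusted p = 2.56e-06. Hes5 in Astrocytes was at 0.583, 0.782 and 0.686 FPKM, so the MIM-Astrocytes libraries lay between the other cultures. Dner, a further transmembrane ligand, went the other way (0.86 ± 0.07, adjusted p = 4.08e-06).

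**Figure D2:**
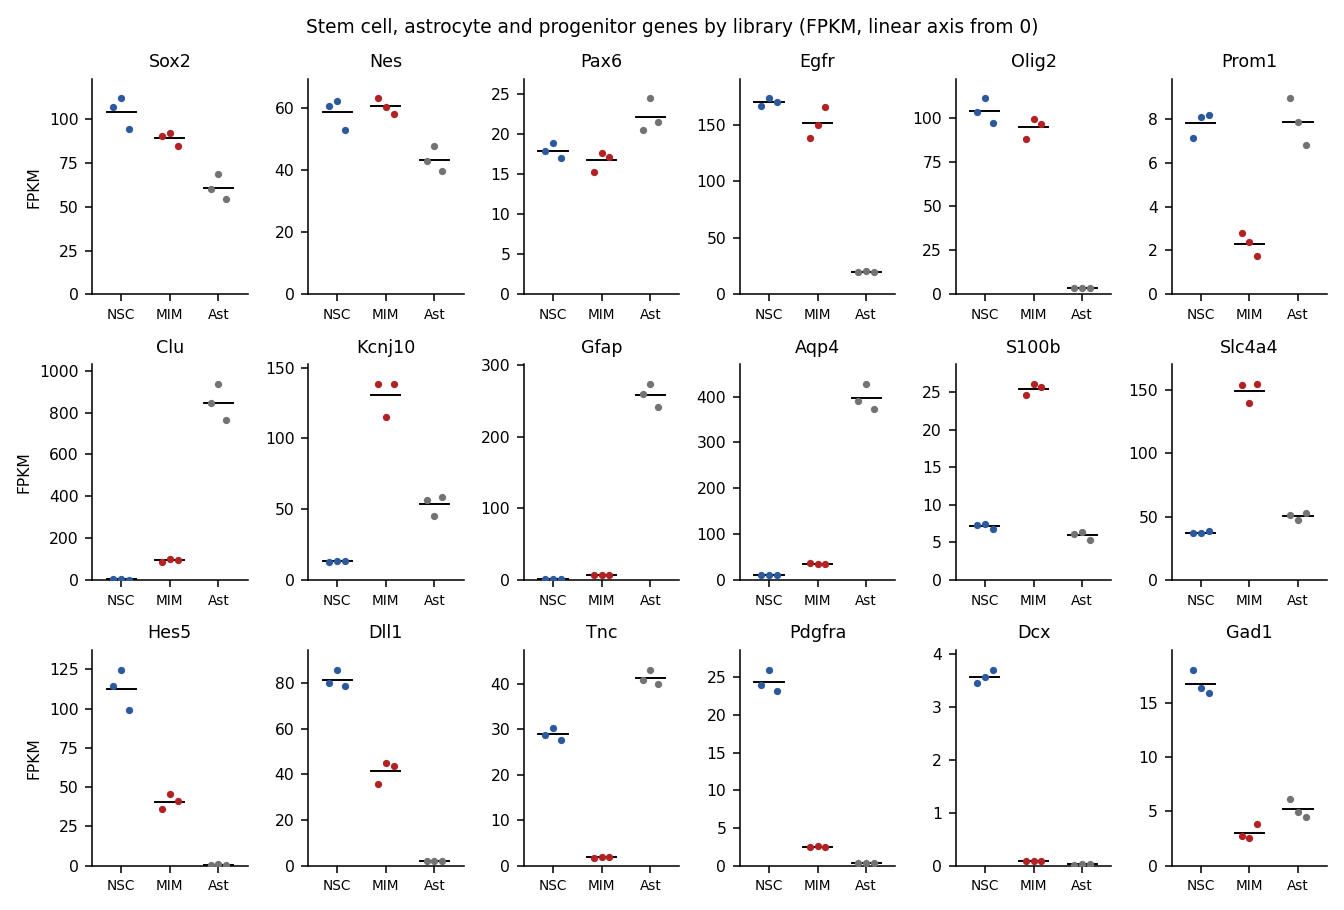
Level (FPKM, linear vertical axis from 0) of 18 genes in each library of NSC (blue), MIM-Astrocytes (red, MIM) and Astrocytes (grey, Ast), with the mean of 3 libraries as a bar. The NSC and MIM-Astrocytes points are close for Sox2, Nes, Pax6 and Egfr, the MIM-Astrocytes points are higher for Clu, Kcnj10 and S100b, and they are lower for Tnc, Pdgfra and Dcx.

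Genes of the oligodendrocyte lineage were mostly lower. Of 17 tested, 12 were called lower, 7 of them at least 2-fold, and 2 higher, with a median of -0.85. Without the 4 that were below 1 FPKM in every MIM-Astrocytes library, Sox10 and Nkx2-2 among them, 8 of 13 were lower and 2 higher. Pdgfra, the growth factor receptor of oligodendrocyte progenitors, measured 2.48, 2.59 and 2.48 FPKM in MIM-Astrocytes and 24, 26 and 23.3 in NSC, a 9.71-fold lower mean (-2.85 ± 0.05, adjusted p = 2.06e-10). Sox10, the lineage's defining factor, measured 0.144, 0.0866 and 0.155 FPKM in MIM-Astrocytes and 2.8, 3.11 and 2.28 in NSC (-1.72 ± 0.08, adjusted p = 7.04e-08). Bcas1, a gene of newly forming oligodendrocytes, measured 4.41, 3.37 and 2.96 FPKM in MIM-Astrocytes and 16.8, 13.8 and 14.8 in NSC. Gpr17 differed by -1.1 ± 0.05, adjusted p = 6.85e-08 and Nkx2-2 by -1.08 ± 0.06, adjusted p = 1.21e-07. The exceptions were Olig1 (0.5 ± 0.09, adjusted p = 0.000628) and Tns3 (0.38 ± 0.09, adjusted p = 0.00454), the call for Tns3 being lost with replicate number as a block (adjusted p = 0.0723). Olig1 and Olig2 thus did not go with Pdgfra and Sox10.

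Neuronal and proneural genes were lower as well: 11 of 14 tested were called lower, 7 at least 2-fold, and 1 higher, with a median of -0.98. Of 36 listed genes 22 were not tested, and 5 of the tested, among them Dcx, Neurog2 and Ina, were below 1 FPKM in every MIM-Astrocytes library; of the other 9, 6 were called lower and 1 higher. Dcx, a microtubule protein of young neurons, measured 0.0842, 0.0919 and 0.0919 FPKM in MIM-Astrocytes and 3.46, 3.56 and 3.71 in NSC (-2.07 ± 0.08, adjusted p = 2.11e-08). Gad1, which makes the transmitter GABA, measured 2.71, 2.57 and 3.86 FPKM in MIM-Astrocytes and 18.1, 16.4 and 15.9 in NSC (-2.15 ± 0.14, adjusted p = 5.28e-07). The neuronal RNA-binding gene Elavl4 measured 0.929, 1.21 and 1.02 FPKM in MIM-Astrocytes and 11.1, 7.48 and 6.24 in NSC. The proneural factor Neurog2 differed by -1.27 ± 0.07, adjusted p = 1.17e-07 and the neurofilament gene Ina by -1.34 ± 0.05, adjusted p = 1.71e-08. Gap43, a growth cone gene, was the exception (0.59 ± 0.1, adjusted p = 0.00039). In bulk RNA, fewer cells of a type and less RNA per cell cannot be told apart, and which of these holds for the oligodendrocyte and neuronal genes was not tested.

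BMP and guidance genes followed the same direction. Of 21 BMP, Id and TGF-beta genes, 12 were called lower and 4 higher (median -0.33). The Id factors, which BMP induces and which block neuronal differentiation, were all lower, Id4 by the least: Id3 measured 10.8, 12.2 and 11.1 FPKM in MIM-Astrocytes and 40.7, 37.6 and 31.9 in NSC (-1.6 ± 0.1, adjusted p = 4.73e-07). Id1 measured 4.98, 5.17 and 5.84 FPKM in MIM-Astrocytes and 15.6, 16.1 and 13.4 in NSC (-1.34 ± 0.1, adjusted p = 1.9e-06). Id2 measured 13.1, 14 and 13 FPKM in MIM-Astrocytes and 29.9, 29.8 and 24.2 in NSC. The receptor Bmpr1b differed by -1.39 ± 0.07, adjusted p = 7.83e-08 and the ligand Bmp7 by -0.91 ± 0.06, adjusted p = 5.01e-07. Chrdl1, a secreted BMP antagonist, was higher at 6.7, 7.61 and 7.09 FPKM in MIM-Astrocytes and 1.74, 2.02 and 1.52 in NSC (1.56 ± 0.07, adjusted p = 3.72e-08), as was the receptor Acvr1 (0.7 ± 0.07, adjusted p = 9.31e-06). In Astrocytes Id1 stood at 121, 140.2 and 104 FPKM and Id3 at 267, 295 and 231. Of 28 axon guidance genes 16 were called lower and 8 higher (median -0.47). The semaphorin receptor Plxnb3 measured 1.26, 1.55 and 1.5 FPKM in MIM-Astrocytes and 12.6, 14.3 and 12.9 in NSC (-2.55 ± 0.07, adjusted p = 1.74e-09). The netrin receptor Dcc measured 1.11, 0.965 and 1.12 FPKM in MIM-Astrocytes and 6.57, 6.53 and 6.9 in NSC (-1.89 ± 0.06, adjusted p = 3.71e-09), with Nrp2 at -1.33 ± 0.06, adjusted p = 4.59e-08 and Efnb3 at -0.88 ± 0.06, adjusted p = 7.83e-07. Ephb2 (1.85 ± 0.09, adjusted p = 5.4e-08) and Unc5c (1.24 ± 0.07, adjusted p = 1.14e-07) were higher. Among guidance genes with a mean of at least 5 FPKM the median was 0.013.

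Astrocyte genes were higher in MIM-Astrocytes than in NSC. Of the 31 mature astrocyte genes tested, 23 were called higher, 16 of them at least 2-fold, and 6 lower, with a median of 1.02. Clu, which encodes the secreted chaperone clusterin, gave the highest difference of all 15110 genes: it measured 85.2, 101 and 97.3 FPKM in MIM-Astrocytes and 2.36, 2.73 and 2.18 in NSC, a 38.9-fold higher mean (4.8 ± 0.09, adjusted p = 3.17e-10), with 844, 937 and 763 in Astrocytes. Kcnj10, the potassium channel Kir4.1, measured 138, 115 and 138 FPKM in MIM-Astrocytes and 12.5, 13.6 and 13.5 in NSC (3.21 ± 0.1, adjusted p = 5.2e-09), above the 56.2, 45.1 and 58.8 of Astrocytes. Slc4a4, a bicarbonate transporter, measured 154, 139 and 154 FPKM in MIM-Astrocytes and 36.7, 36.8 and 38.7 in NSC (1.97 ± 0.06, adjusted p = 4e-09), with 51.1, 47.7 and 53 in Astrocytes. Both channel and transporter were thus highest in the MIM cultures among these 3 groups.

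The classical markers took different places between the 2 other cultures. Gfap, the filament gene by which astrocytes are commonly stained, measured 7.44, 7.5 and 7.11 FPKM in MIM-Astrocytes and 0.851, 0.883 and 1.16 in NSC (2.09 ± 0.08, adjusted p = 1.12e-08), a 7.63-fold higher mean than in NSC, but Astrocytes stood at 259.6, 273 and 241. Aqp4, the water channel of astrocyte endfeet, measured 36.4, 35.9 and 34.1 FPKM in MIM-Astrocytes and 11.3, 11 and 9.93 in NSC (1.63 ± 0.06, adjusted p = 1.77e-08) against 391, 427 and 373 in Astrocytes. S100b, a calcium-binding protein, measured 24.6, 26 and 25.6 FPKM in MIM-Astrocytes and 7.25, 7.41 and 6.79 in NSC (1.7 ± 0.07, adjusted p = 2.01e-08), above the 6.13, 6.44 and 5.33 of Astrocytes. Glul, the glutamine synthetase gene, was at 867, 1046 and 999.96 FPKM in MIM-Astrocytes, 196, 198 and 164 in NSC and 283, 317 and 256 in Astrocytes, and Acsbg1, an acyl-CoA synthetase gene, at 278, 350.4 and 327, 64.3, 67.2 and 60.9 and 308, 333 and 264. The glutamate transporter Slc1a2 differed by 1.12 ± 0.1, adjusted p = 4.2e-06 and the gap junction gene Gja1 by 1.1 ± 0.16, adjusted p = 0.000174.

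A few astrocyte genes were lower. Mfge8, a secreted protein that marks cells for engulfment, measured 75.3, 90.5 and 92.8 FPKM in MIM-Astrocytes and 516, 533 and 458 in NSC (-2.53 ± 0.1, adjusted p = 2.07e-08), and Astrocytes were lower still at 19.4, 21.7 and 17.3. Nfib, a glial transcription factor, differed by -0.74 ± 0.08, adjusted p = 1.56e-05. Aldh1l1, a folate enzyme often used to mark astrocytes, was at 75.2, 76.3 and 75 FPKM in MIM-Astrocytes and 98.8, 103 and 89.5 in NSC (-0.36 ± 0.08, adjusted p = 0.00248), so this marker did not separate the MIM cultures from NSC in the direction of the list.

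Of 17 reactive astrocyte genes tested, 12 were called higher, 9 at least 2-fold, and 2 lower (median 1.02). Of 36 listed genes 19 were not tested, and 5 of the tested, among them C3 and Lcn2, were below 1 FPKM in every NSC library; of the other 12, 7 were called higher and 2 lower (median 0.73). The complement gene C3 measured 8.41, 8.94 and 9.02 FPKM in MIM-Astrocytes and 0.00696, 0.0397 and 0.0463 in NSC (3.25 ± 0.05, adjusted p = 8.23e-11). The iron-binding protein gene Lcn2 measured 4.2, 5.3 and 5.1 FPKM in MIM-Astrocytes and 0.0275, 0.0311 and 0 in NSC (2.52 ± 0.09, adjusted p = 6.49e-09), and Cd109 differed by 1.64 ± 0.06, adjusted p = 6.26e-09. These levels were low beside Astrocytes, where C3 was at 395, 360.4 and 382 and Lcn2 at 44.7, 50 and 41. S100a10 (-1.88 ± 0.08, adjusted p = 3.33e-08) and B3gnt5 (-0.9 ± 0.14, adjusted p = 0.000355) were lower. H2-D1, H2-T23 and Psmb8 of this list are also on the interferon and MHC list, and Gfap is on the astrocyte list.

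Genes of cell division were higher in MIM-Astrocytes than in the stem cell cultures. All 44 mitosis genes tested were called higher, 39 of them at least 2-fold, with a median of 1.46. In the 17 alternatives that kept the same genes, 43 or 44 were called higher. Top2a, the topoisomerase of dividing cells, measured 155, 152 and 143 FPKM in MIM-Astrocytes and 52.1, 49 and 42.6 in NSC, a 3.13-fold higher mean (1.63 ± 0.07, adjusted p = 3.37e-08). The proliferation marker Mki67 measured 52.9, 51.3 and 51.5 FPKM in MIM-Astrocytes and 21.6, 19.6 and 19.6 in NSC (1.32 ± 0.05, adjusted p = 1.2e-08). The kinase gene Pbk was the widest of the list at 56.3, 59.7 and 52.3 FPKM in MIM-Astrocytes and 6.79, 9.24 and 6.01 in NSC (2.79 ± 0.12, adjusted p = 2.77e-08). The kinetochore gene Nuf2 measured 31.1, 31 and 29.9 FPKM in MIM-Astrocytes and 6.42, 6.73 and 5.55 in NSC (2.13 ± 0.07, adjusted p = 4.6e-09). The spindle gene Hmmr measured 29.9, 28.3 and 26.4 FPKM in MIM-Astrocytes and 6.65, 6.62 and 5.7 in NSC (2 ± 0.07, adjusted p = 6.43e-09). Ccna2 (cyclin A2) measured 55.4, 58.7 and 54.2 FPKM in MIM-Astrocytes and 19.5, 19.5 and 17.8 in NSC, and Incenp differed by 1.39 ± 0.04, adjusted p = 2.81e-09. Serum-grown Astrocytes were far lower, with Top2a at 0.89, 0.99 and 0.952 FPKM, Mki67 at 0.0982, 0.128 and 0.11 and Nuf2 at 0.222, 0.286 and 0.186.

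Replication and G1/S genes behaved alike: 35 of 41 were called higher, 25 at least 2-fold, and 1 lower, with a median of 1.12. Rrm2, a subunit of the enzyme that makes deoxynucleotides, measured 33.2, 33.5 and 33.3 FPKM in MIM-Astrocytes and 7.66, 7.65 and 6.27 in NSC (2.07 ± 0.08, adjusted p = 1.45e-08). Thymidine kinase Tk1 measured 27.4, 33.6 and 31 FPKM in MIM-Astrocytes and 6.41, 5.91 and 6.7 in NSC (2.11 ± 0.09, adjusted p = 2.44e-08). Ccne1 (cyclin E1) measured 4.27, 5.18 and 4.65 FPKM in MIM-Astrocytes and 0.841, 1.08 and 0.976 in NSC (1.53 ± 0.07, adjusted p = 7.2e-08). Tyms, which makes thymidylate with a folate carbon, measured 23.7, 26.7 and 26.1 FPKM in MIM-Astrocytes and 9.15, 7.54 and 6.86 in NSC. Mcm7, a subunit of the replicative helicase, was the one lower gene at 36.3, 37.4 and 35.1 FPKM in MIM-Astrocytes and 45.4, 45.4 and 39.5 in NSC (-0.25 ± 0.06, adjusted p = 0.00591), a call lost when all libraries were scaled to one FPKM total (adjusted p = 0.174).

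The promoters of these genes were searched for known sequence patterns because the members moved together, and 1 gene of each group that holds a match is shown, chosen after the search. The CHR, TTTGAA, is bound by the complexes that time mitotic genes, and the E2F pattern TTTNGCGC by the factors of the G1/S switch. Windows from RefSeq (GRCm38.p6), 250 bases before to 50 after each start site, were searched on both strands, and the 250 bases before the start are printed 5′ to 3′ along the gene with the matches in capitals.
Top2a, chr11:99024190-99024439, minus strand: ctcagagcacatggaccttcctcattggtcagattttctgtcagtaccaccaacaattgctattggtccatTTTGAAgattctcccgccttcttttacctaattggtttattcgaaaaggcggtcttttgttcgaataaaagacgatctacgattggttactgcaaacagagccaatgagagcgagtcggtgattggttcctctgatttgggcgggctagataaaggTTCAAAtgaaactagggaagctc
Uhrf1, chr17:56304063-56304312, plus strand: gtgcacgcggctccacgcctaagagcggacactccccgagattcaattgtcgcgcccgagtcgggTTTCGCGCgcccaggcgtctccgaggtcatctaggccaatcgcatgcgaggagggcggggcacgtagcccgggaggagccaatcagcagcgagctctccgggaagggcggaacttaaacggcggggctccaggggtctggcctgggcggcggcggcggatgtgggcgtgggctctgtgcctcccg
The CHR was in 26 of the 35 mitosis genes with a window (74.29%), in 5 of 34 replication genes (14.71%) and in 1200 of 8798 tested genes with a window (13.64%). TTTNGCGC was in 11 of 34 replication genes (32.35%), 2 of 35 mitosis genes (5.71%) and 260 of 8798 tested genes (2.96%). Over all 32851 windows the shares were 17.89% and 1.38%. In Top2a the matches begin 179 and 23 bases before the start site, and in Uhrf1 the match begins 185 bases before it. Uhrf1, which recruits Dnmt1 to newly copied DNA, measured 23.8, 23.6 and 22.7 FPKM in MIM-Astrocytes and 7.52, 9.79 and 8.55 in NSC (1.35 ± 0.1, adjusted p = 9.89e-07). Only 1 of its 2 windows holds the match. In all, 10 patterns were searched in 9 lists. The CCAAT box, a general promoter element, was in 25 of the 35 mitosis genes (71.43%) and 18 of 23 cholesterol genes (78.26%) against 43.92% of tested genes. The NRF2 pattern TGACNNNGC was in 11 of 25 metal and redox genes (44%) against 16.99%, and the CArG box in 3 of 15 immediate early genes (20%) against 1.58%. The sterol pattern TCACNCCAC was in only 1 of 23 cholesterol genes (4.35%) against 1.39%. The hypoxia pattern, ACGTG or GCGTG, was in 28 of 31 hypoxia and glycolysis genes (90.32%), but also in 69.45% of tested genes. The paired E box, which can contain the hypoxia pattern, was in 3 of 23 insulin, IGF and FoxO genes (13.04%) against 2.58%.

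Cyclins and inhibitors of G1 went both ways, with 10 of 26 called higher and 14 lower, beside 33.0% and 26.6% of all genes tested. Of the D cyclins, Ccnd1 measured 23, 23.3 and 24.6 FPKM in MIM-Astrocytes and 10, 11.2 and 8.65 in NSC (1.18 ± 0.09, adjusted p = 1.1e-06). Ccnd2 measured 72.4, 72.3 and 81 FPKM in MIM-Astrocytes and 28, 31.1 and 26.8 in NSC (1.36 ± 0.07, adjusted p = 1.43e-07). Among inhibitors, Cdkn1a (p21) was higher at 20, 20.8 and 21.5 FPKM in MIM-Astrocytes and 5.93, 5.85 and 5.79 in NSC (1.67 ± 0.05, adjusted p = 4.08e-09). Ccng1 was also higher at 114, 113 and 105 FPKM in MIM-Astrocytes and 33.1, 30.9 and 27.5 in NSC (1.83 ± 0.08, adjusted p = 4.02e-08); both are known p53 targets. Cdkn1c (p57) was lower at 1.15, 1.77 and 1.4 FPKM in MIM-Astrocytes and 14.4, 14.5 and 10.9 in NSC (-2.54 ± 0.18, adjusted p = 9.86e-07). Cdkn1b (p27) was also lower at 25.4, 25.7 and 23.4 FPKM in MIM-Astrocytes and 42.2, 42.8 and 35 in NSC. Cdkn2a was lower at 5.01, 5.61 and 5.47 FPKM in MIM-Astrocytes and 9.54, 8.73 and 7.43 in NSC (-0.58 ± 0.09, adjusted p = 0.000319), as were the antiproliferative genes Btg1 (-1.38 ± 0.08, adjusted p = 1.46e-07) and Gadd45b (-1.31 ± 0.07, adjusted p = 1.46e-07).

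Immediate early genes, the first transcripts that growth factors induce, were lower in MIM-Astrocytes. Of 18 tested, 15 were called lower, 9 of them at least 2-fold, and 1 higher, with a median of -0.93. Without the 4 below 1 FPKM in every MIM-Astrocytes library, among them Egr2, 11 of 14 were lower and 1 higher. Klf10 measured 1.8, 1.87 and 2.41 FPKM in MIM-Astrocytes and 30.9, 30.4 and 27.6 in NSC (-3.34 ± 0.09, adjusted p = 2.16e-09). Egr1 measured 1.28, 1.29 and 1.33 FPKM in MIM-Astrocytes and 15.3, 15.7 and 16.3 in NSC (-2.86 ± 0.05, adjusted p = 3.17e-10). Egr2 measured 0.377, 0.332 and 0.352 FPKM in MIM-Astrocytes and 11.3, 9.56 and 8.3 in NSC (-2.98 ± 0.12, adjusted p = 2.66e-08). Fos was at 2.58, 3.47 and 2.76 FPKM in MIM-Astrocytes, 14.8, 14.5 and 14.1 in NSC and 16.9, 19.3 and 16.3 in Astrocytes, and Ier2 differed by -1.88 ± 0.08, adjusted p = 2.79e-08. The nuclear receptor Nr4a2 was the one higher gene (0.86 ± 0.23, adjusted p = 0.00809). Among 30 EGF and FGF receptor and ERK response genes, which share Egr1 and Ier3 with the list above, 12 were called higher and 10 lower. All genes tested gave 33.0% higher and 26.6% lower, and the median of the list was 0.07. Fgfrl1, a decoy receptor, measured 44, 54.3 and 54.1 FPKM in MIM-Astrocytes and 14, 15.8 and 16.9 in NSC (1.64 ± 0.09, adjusted p = 1.58e-07). The ligand Hbegf measured 6.02, 6.05 and 5.83 FPKM in MIM-Astrocytes and 1.6, 1.73 and 1.38 in NSC (1.44 ± 0.09, adjusted p = 2.81e-07), and the EGF receptor antagonist Lrig1 differed by 0.85 ± 0.06, adjusted p = 1.55e-06. Il17rd, an FGF feedback inhibitor, was lower (-1.11 ± 0.05, adjusted p = 3.33e-08).

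Txnip was among the genes furthest below NSC. It encodes an arrestin that limits glucose uptake, and measured 7.49, 6.92 and 5.89 FPKM in MIM-Astrocytes and 103, 102 and 86 in NSC, a 14.3-fold lower mean (-3.65 ± 0.09, adjusted p = 1.55e-09), with Astrocytes at 88.7, 84.9 and 77.7. Its relatives Arrdc4 (2.68, 2.67 and 2.84 FPKM in MIM-Astrocytes and 22.1, 22.5 and 19.7 in NSC) and Arrdc3 (30.2, 30.6 and 28.7 FPKM in MIM-Astrocytes and 105, 104 and 97.8 in NSC) differed by -2.59 and -1.75. Over the list of insulin, IGF and FoxO genes, 9 of 27 were called higher and 13 lower, beside 33.0% and 26.6% of all genes tested. The receptor Igf1r measured 4.78, 3.93 and 5.06 FPKM in MIM-Astrocytes and 18.7, 21 and 21.1 in NSC (-1.93 ± 0.1, adjusted p = 1e-07). Insr measured 8.84, 7.89 and 10.3 FPKM in MIM-Astrocytes and 15.9, 18.2 and 15.8 in NSC. The secreted IGF binding proteins went the other way. Igfbp4 measured 287, 328 and 337 FPKM in MIM-Astrocytes and 45.2, 49.2 and 41.6 in NSC (2.78 ± 0.08, adjusted p = 2.97e-09). Igfbp3 measured 116, 125 and 121 FPKM in MIM-Astrocytes and 18.7, 18.48 and 16.3 in NSC (2.69 ± 0.08, adjusted p = 2.81e-09). Igfbp2 measured 926, 1040.4 and 938 FPKM in MIM-Astrocytes and 199, 198 and 167 in NSC (2.36 ± 0.1, adjusted p = 3e-08). For Igfbp4, Astrocytes were at 6.97, 7.52 and 6.7, far below the MIM cultures, and for Igfbp3 they were at 175, 190.2 and 158, above them.

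**Figure D3:**
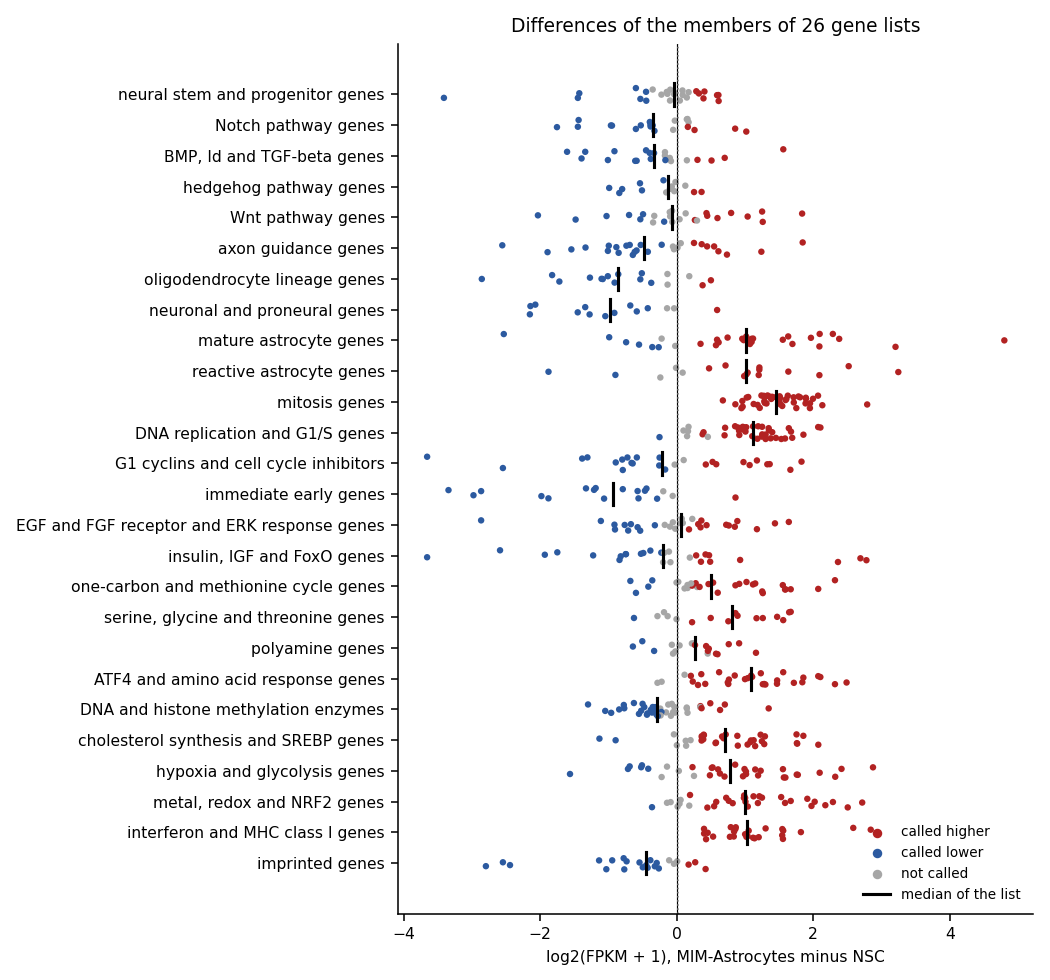
Difference of each tested member of 26 gene lists (horizontal axis, log2(FPKM + 1), MIM-Astrocytes minus NSC), coloured by call, with the list median as a black bar, 0 as a solid line and the median of all genes as a dotted line. Mitosis genes lie wholly to the right with a median of 1.46, and immediate early genes mostly to the left with a median of -0.93.

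Enzymes of one-carbon metabolism were more often higher in MIM-Astrocytes. Of 30 one-carbon and methionine cycle genes tested, 19 were called higher, 11 at least 2-fold, and 4 lower (median 0.50). Mthfd2, the mitochondrial enzyme that oxidises the folate-bound carbon, measured 8.94, 11 and 9.58 FPKM in MIM-Astrocytes and 0.907, 1.72 and 0.96 in NSC (2.32 ± 0.14, adjusted p = 2.7e-07), with 2.46, 2.5 and 1.8 in Astrocytes. Aldh1l2, its mitochondrial partner, measured 14.6, 15.5 and 15.9 FPKM in MIM-Astrocytes and 2.97, 3.28 and 2.44 in NSC (2.07 ± 0.08, adjusted p = 1.31e-08). Shmt2, which releases the carbon from serine, measured 36.5, 44.4 and 40.9 FPKM in MIM-Astrocytes and 16.6, 17.3 and 15 in NSC (1.26 ± 0.08, adjusted p = 6.11e-07). The cytosolic Shmt1 was not called (interval -0.22 to 0.22). Mthfd2l, a relative of Mthfd2, was lower (-0.68 ± 0.09, adjusted p = 8.97e-05).

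In the methionine cycle, Mat2a, which makes S-adenosylmethionine, measured 79, 79.7 and 75.6 FPKM in MIM-Astrocytes and 52.4, 50.4 and 50.5 in NSC (0.6 ± 0.05, adjusted p = 5.03e-06). Ahcy, which clears its by-product, measured 10.8, 13 and 9.42 FPKM in MIM-Astrocytes and 5.38, 3.9 and 4.03 in NSC (1.15 ± 0.2, adjusted p = 0.000525). Ahcyl1 measured 168, 138 and 154 FPKM in MIM-Astrocytes and 51.6, 54.8 and 44 in NSC (1.6 ± 0.1, adjusted p = 2.83e-07). Mtr, which remakes methionine, measured 7.42, 6.89 and 6.28 FPKM in MIM-Astrocytes and 4.59, 5.09 and 4.38 in NSC (0.47 ± 0.06, adjusted p = 0.000101). Cbs, which sends homocysteine towards cysteine, measured 42.6, 39.8 and 47.8 FPKM in MIM-Astrocytes and 17.1, 16.6 and 9.77 in NSC, with NSC replicate 3 below the other 2 NSC libraries. Each of these genes lay wholly above NSC. Over all genes tested, the groups stood wholly apart in 64.6%, in either direction.

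Of 16 serine, glycine and threonine genes, 11 were called higher and 1 lower (median 0.81). Phgdh, the first enzyme of serine synthesis, measured 80.5, 116 and 91.5 FPKM in MIM-Astrocytes and 122, 122 and 103 in NSC, overlapping (interval -0.56 to -0.01, adjusted p = 0.0736), and was called lower without MIM-Astrocytes replicate 2 at -0.42, without NSC replicate 3 at -0.36, after median-of-ratios scaling and with array weights at -0.33, after quantile normalization at -0.36 and after removal of mitochondrial genes and small RNAs at -0.365. Its downstream enzyme Psat1 was higher at 164, 181 and 169 FPKM in MIM-Astrocytes and 68.9, 64.7 and 51 in NSC (1.47 ± 0.11, adjusted p = 1.35e-06). Gcsh, of the glycine cleavage system, measured 54.2, 57.4 and 52.2 FPKM in MIM-Astrocytes and 18.9, 17.9 and 13.1 in NSC, the glycine transporter Slc6a9 66.5, 78.9 and 84.4 FPKM in MIM-Astrocytes and 27, 25.2 and 23.4 in NSC (1.56 ± 0.1, adjusted p = 3.9e-07), and Slc1a4 and Sdsl differed by 1.17 ± 0.06, adjusted p = 1.16e-07 and 1.65 ± 0.12, adjusted p = 1.07e-06. Slc38a1 was the lower gene (-0.62 ± 0.06, adjusted p = 1.1e-05). Among 19 polyamine genes 9 were called higher and 3 lower, beside 33.0% and 26.6% of all genes tested. Odc1, which makes putrescine, one of the MIM metabolites, was at 61.7, 64.2 and 66.4 FPKM in MIM-Astrocytes and 72, 66.1 and 61.7 in NSC (interval -0.24 to 0.14), called lower after quantile normalization at -0.19 and after removal of small RNAs and mitochondrial genes at -0.14. Amd1, which supplies the aminopropyl group, was higher (1.16 ± 0.09, adjusted p = 1.38e-06), as were Sat1 (0.92 ± 0.09, adjusted p = 6.92e-06) and Eif5a (0.6 ± 0.08, adjusted p = 7.09e-05), and Dhps and Azin1 were lower (-0.64 ± 0.07, adjusted p = 3.92e-05; -0.5 ± 0.09, adjusted p = 0.000933).

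Targets of ATF4, the factor that cells raise when amino acids are short or the endoplasmic reticulum is stressed, were higher as a group: 28 of 31 were called higher, 18 at least 2-fold, and 0 lower in limma (median 1.09). Without the 2 below 1 FPKM in every NSC library, Nupr1 among them, 26 of 29 were higher and 0 lower (median 1.04). Nupr1 measured 6.54, 7.82 and 6.85 FPKM in MIM-Astrocytes and 0.392, 0.495 and 0.419 in NSC (2.49 ± 0.06, adjusted p = 1.68e-09). The proline enzyme gene Pycr1 measured 6.51, 8.06 and 7.32 FPKM in MIM-Astrocytes and 1.16, 0.881 and 0.754 in NSC (2.1 ± 0.09, adjusted p = 2.35e-08). The asparagine synthetase gene Asns measured 37.6, 37.9 and 36.1 FPKM in MIM-Astrocytes and 12.5, 9.74 and 9.81 in NSC (1.72 ± 0.09, adjusted p = 1.41e-07). Slc7a11, the cystine importer, measured 9.79, 9.84 and 9.24 FPKM in MIM-Astrocytes and 4.3, 4.15 and 4.02 in NSC (1.04 ± 0.05, adjusted p = 5.26e-08). The factors themselves differed little, with Atf4 at 46.7, 53.6 and 51.2 FPKM in MIM-Astrocytes and 42.2, 42.7 and 36.5 in NSC (0.31 ± 0.12, adjusted p = 0.0472). Ddit3 (CHOP) measured 12.8, 14.3 and 14.1 FPKM in MIM-Astrocytes and 12.3, 11.5 and 10.8 in NSC (0.24 ± 0.08, adjusted p = 0.0229). Both calls were near the threshold: that of Atf4 was lost in 7 alternatives (adjusted p of 0.06 to 0.151), 5 of them leaving out 1 library, and that of Ddit3 in 5 (0.0536 to 0.0809), 4 of them leaving out 1 library. The promoter of Slc7a11 is shown for this group, with the C/EBP-ATF element TGATGNAA (either strand) in capitals.
Slc7a11, chr3:50443614-50443863, minus strand: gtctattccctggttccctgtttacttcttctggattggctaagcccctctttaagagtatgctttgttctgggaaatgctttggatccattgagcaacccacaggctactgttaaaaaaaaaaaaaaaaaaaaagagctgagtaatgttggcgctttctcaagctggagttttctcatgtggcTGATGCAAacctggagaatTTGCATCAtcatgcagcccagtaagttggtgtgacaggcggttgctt
It holds 2 matches, 66 and 47 bases before the start site. The element was in 7 of 25 list genes with a window (28.0%) and in 216 of 8798 tested genes (2.46%). Nupr1, Pycr1, Asns, Aars, Vldlr and Gars are the other 6.

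Enzymes that write and erase methyl marks were more often lower. Of 43 tested, 24 were called lower, 2 at least 2-fold, and 6 higher (median -0.28). The maintenance methyltransferase Dnmt1 was higher at 21.7, 20.2 and 19.9 FPKM in MIM-Astrocytes and 11.9, 13.2 and 11.7 in NSC (0.71 ± 0.07, adjusted p = 9.87e-06), together with Uhrf1. The de novo enzyme Dnmt3a was lower at 11.9, 13.1 and 14.5 FPKM in MIM-Astrocytes and 21.3, 17.1 and 16 in NSC (-0.43 ± 0.1, adjusted p = 0.00516), a call lost with replicate number as a block (adjusted p = 0.0741) and at a common FPKM total (0.0539). All 3 TET genes, whose enzymes oxidise methylcytosine, were lower: Tet1 measured 5.63, 5.35 and 5.88 FPKM in MIM-Astrocytes and 10, 8.21 and 9.52 in NSC (-0.63 ± 0.09, adjusted p = 0.000152). Tet2 measured 16.5, 16.7 and 17.7 FPKM in MIM-Astrocytes and 31, 29.1 and 29.1 in NSC (-0.77 ± 0.07, adjusted p = 6.31e-06). Tet3 measured 5.02, 3.97 and 4.55 FPKM in MIM-Astrocytes and 9.85, 9.45 and 9.77 in NSC (-0.96 ± 0.14, adjusted p = 0.000183). The histone demethylase genes formed the main block of lower members. Of 16 tested genes named Kdm, a family chosen after the values were seen, 14 were called lower and 1 higher, the Y-linked Kdm5d, whose call was lost in 11 alternatives. Kdm5b measured 20.3, 19.4 and 20.2 FPKM in MIM-Astrocytes and 41.8, 44.7 and 40.6 in NSC (-1.05 ± 0.05, adjusted p = 9.16e-08). Kdm4a measured 17.7, 19.2 and 19.3 FPKM in MIM-Astrocytes and 34.3, 37 and 32 in NSC (-0.84 ± 0.06, adjusted p = 9.43e-07).

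Kdm6a, a histone demethylase gene that escapes X inactivation, stood lowest of these at 15.4, 15.6 and 15.4 FPKM in MIM-Astrocytes and 39.3, 39.4 and 39.6 in NSC (-1.3 ± 0.06, adjusted p = 3.97e-08). Xist, made only from an inactive X chromosome, measured 31.5, 25.1 and 31.5 FPKM in MIM-Astrocytes and 98.9, 95.1 and 116 in NSC (-1.78 ± 0.12, adjusted p = 9.24e-07). The Y-linked genes were higher in MIM-Astrocytes, with Ddx3y at 14.7, 14.8 and 13.5 FPKM in MIM-Astrocytes and 7.15, 7.12 and 6.46 in NSC (0.96 ± 0.07, adjusted p = 1.59e-06). Uty measured 13.8, 12.2 and 11.3 FPKM in MIM-Astrocytes and 7.52, 7.48 and 8.19 in NSC (0.62 ± 0.11, adjusted p = 0.000669), and Eif2s3y differed by 0.56 ± 0.08, adjusted p = 0.000189. Both groups thus held transcripts of both kinds, in different proportion. The X-linked Ddx3x (0.07) and Eif2s3x (0.03) were not called. The sex makeup of the cultures is not in the labels, and its part in the difference of Kdm6a or of other genes was not tested. Of 515 tested genes on the X chromosome 162 were called higher and 169 lower, with a median of -0.032. All genes tested gave 33.0% higher and 26.6% lower.

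Genes of sterol synthesis were higher in MIM-Astrocytes. Of 34 cholesterol and SREBP genes, 27 were called higher, 14 at least 2-fold, and 2 lower (median 0.70). Without Abcg1, below 1 FPKM in every MIM-Astrocytes library, 27 of 33 were higher and 1 lower. Insig1, the sensor that holds SREBP back, measured 66.1, 76.4 and 70 FPKM in MIM-Astrocytes and 21.1, 20.8 and 18.9 in NSC (1.76 ± 0.08, adjusted p = 3e-08). Hmgcs1, an early enzyme of the pathway, measured 118, 116 and 111 FPKM in MIM-Astrocytes and 54.8, 52 and 47.2 in NSC (1.15 ± 0.07, adjusted p = 4.22e-07) and Idi1 differed by 1.76 ± 0.1, adjusted p = 2.45e-07. The desaturase gene Scd1 measured 30.6, 28.9 and 30.9 FPKM in MIM-Astrocytes and 6.63, 6.71 and 5.86 in NSC (2.08 ± 0.05, adjusted p = 1.74e-09). The 2 lower genes, Abca1 at 46.5, 45.6 and 47.4 FPKM in MIM-Astrocytes and 104, 105 and 101 in NSC (-1.13 ± 0.04, adjusted p = 1.12e-08) and Abcg1 (-0.89 ± 0.07, adjusted p = 1.67e-06), export sterol and are raised by the oxysterol receptors. Among lipid handling genes, 14 of 26 were called higher and 7 lower, or 14 and 4 of 23 without the 3 below 1 FPKM in every MIM-Astrocytes library, Angptl4 among them. Acsl6 (1.84 ± 0.1, adjusted p = 9.86e-08) and Acsl3 (1.24 ± 0.09, adjusted p = 1.45e-06), which activate fatty acids, were higher, and Angptl4, a lipase inhibitor, was at 0.0481, 0.124 and 0.0926 FPKM in MIM-Astrocytes and 4.33, 4.54 and 3.51 in NSC (-2.23 ± 0.09, adjusted p = 1.83e-08).

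Glycolysis and hypoxia genes were higher: 24 of 34 were called higher, 14 at least 2-fold, and 6 lower (median 0.78). Slc2a1, the glucose transporter GLUT1, measured 17, 20.4 and 19.8 FPKM in MIM-Astrocytes and 1.79, 1.65 and 1.74 in NSC, an 11-fold higher mean (2.88 ± 0.08, adjusted p = 2.62e-09), with 16.5, 16.6 and 14.2 in Astrocytes. Its neuronal relative Slc2a3 (GLUT3) was lower at 1.63, 1.69 and 1.81 FPKM in MIM-Astrocytes and 7.46, 7.14 and 6.42 in NSC (-1.56 ± 0.16, adjusted p = 1.53e-05). Gpi1 measured 428, 452 and 449 FPKM in MIM-Astrocytes and 131, 137 and 119 in NSC (1.77 ± 0.07, adjusted p = 1.97e-08). The pyruvate kinase gene Pkm measured 677, 763 and 715 FPKM in MIM-Astrocytes and 247, 248 and 218 in NSC (1.59 ± 0.1, adjusted p = 4.11e-07). Vegfa, a vessel growth factor raised in hypoxia, measured 28.5, 32.6 and 30.7 FPKM in MIM-Astrocytes and 4.71, 6.19 and 5.12 in NSC (2.32 ± 0.09, adjusted p = 2.08e-08). Ak4 measured 31, 31.7 and 31 FPKM in MIM-Astrocytes and 5.73, 4.79 and 4.67 in NSC (2.42 ± 0.08, adjusted p = 6.26e-09). Mxi1 (-0.69 ± 0.06, adjusted p = 6.4e-06) and Kdm3a (-0.52 ± 0.05, adjusted p = 1.25e-05), also hypoxia targets, were lower. Gapdh was not tested because its value in at least 1 of the 6 libraries lacked the status OK.

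Antioxidant and metal genes were higher as a group, with 26 of 33 called higher, 17 at least 2-fold, and 1 lower (median 1.00). The NRF2 target Hmox1, which breaks down haem, measured 79.8, 100.3 and 93.7 FPKM in MIM-Astrocytes and 16.2, 15.9 and 13.6 in NSC (2.51 ± 0.1, adjusted p = 1.9e-08). The glutathione synthesis genes Gclm (73, 72.6 and 69 FPKM in MIM-Astrocytes and 18, 16.3 and 16.4 in NSC) and Gclc (30.2, 33.4 and 34.1 FPKM in MIM-Astrocytes and 10.6, 10.2 and 9.7 in NSC) differed by 2.02 and 1.59, and Me1, a source of NADPH, measured 67.9, 64.6 and 65.4 FPKM in MIM-Astrocytes and 14.5, 14 and 13 in NSC (2.18 ± 0.06, adjusted p = 1.59e-09). The neural metallothionein Mt3 measured 1386, 1828 and 1672 FPKM in MIM-Astrocytes and 257, 255 and 225 in NSC (2.72 ± 0.14, adjusted p = 1.19e-07), while Mt1 (0.04) and Mt2 (0.06) were not called, Mt2 being called higher only after quantile normalization at 0.36. Slc30a1, a zinc exporter, was lower (-0.36 ± 0.08, adjusted p = 0.00389).

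**Figure D4:**
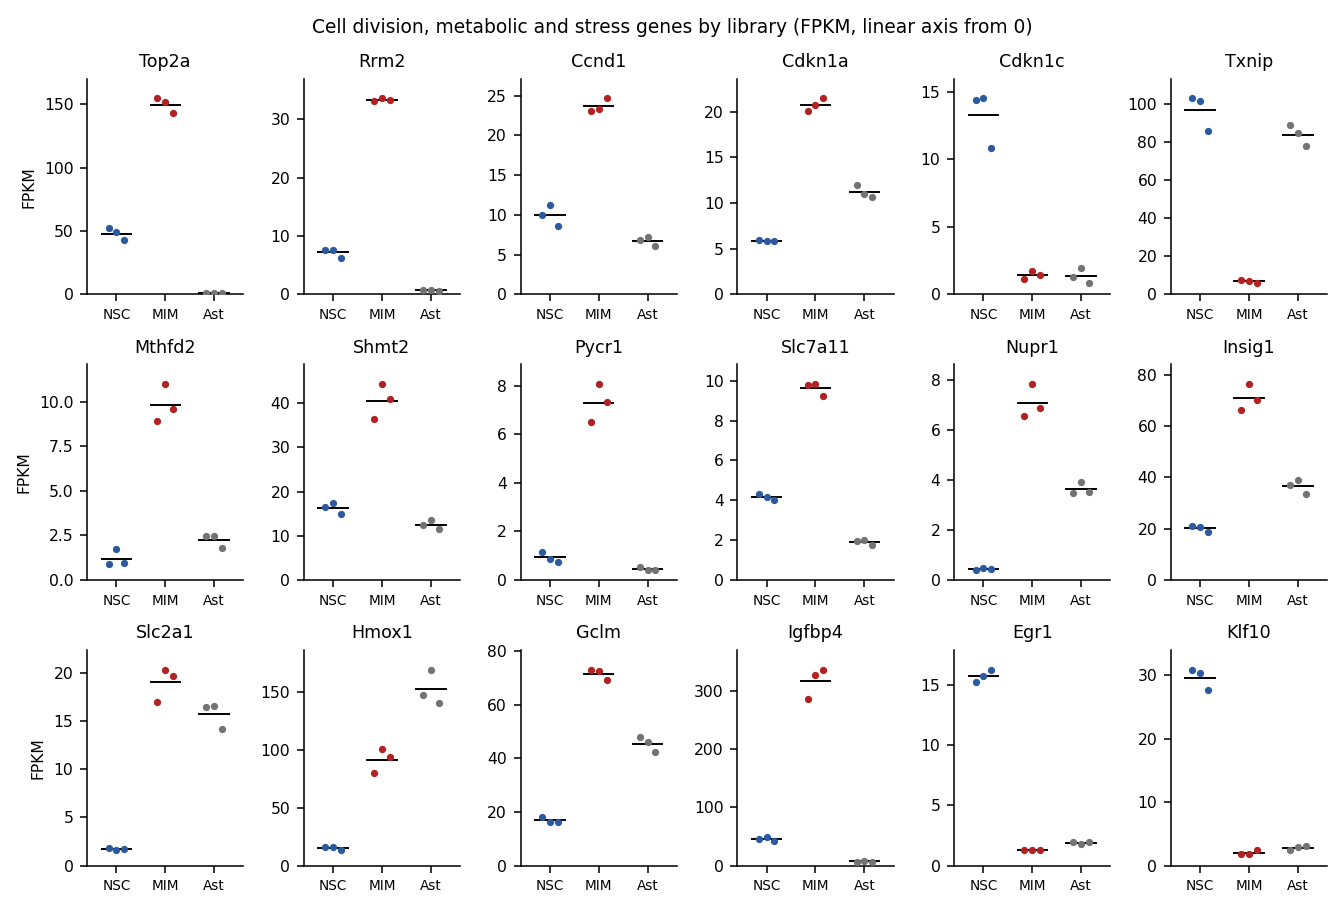
Level (FPKM, linear vertical axis from 0) of 18 genes of cell division, metabolism and stress in each library of NSC (blue), MIM-Astrocytes (red, MIM) and Astrocytes (grey, Ast), with the mean of 3 libraries as a bar. The red points lie above the blue ones for Top2a, Mthfd2, Nupr1, Slc2a1 and Hmox1, and below them for Cdkn1c, Txnip, Egr1 and Klf10.

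All 26 interferon and MHC class I genes tested were called higher, 15 at least 2-fold, with a median of 1.03, and all 26 were higher in each of the 17 alternatives that kept the same genes. Of 46 listed genes 20 were not tested, among them Isg15, Irf7 and Oas1a, and 8 of the tested, among them Ifit3b, Ifit3 and Ifi35, were below 1 FPKM in every NSC library, so their direction was fixed. The other 18 were called higher as well (median 0.93). H2-K1, a classical MHC class I heavy chain, measured 18.8, 22.5 and 21.1 FPKM in MIM-Astrocytes and 2.59, 2.74 and 2.52 in NSC (2.59 ± 0.1, adjusted p = 1.12e-08). B2m, its light chain, measured 96.3, 115 and 109 FPKM in MIM-Astrocytes and 54.7, 49.7 and 40.2 in NSC (1.14 ± 0.12, adjusted p = 1.84e-05). Ifit3b measured 7.76, 7.75 and 6.84 FPKM in MIM-Astrocytes and 0.21, 0.137 and 0.181 in NSC (2.84 ± 0.06, adjusted p = 7.36e-10). Ifit3 measured 4.59, 4.41 and 5 FPKM in MIM-Astrocytes and 0.724, 0.515 and 0.581 in NSC (1.82 ± 0.08, adjusted p = 3.7e-08). Ifit3b and Ifit3 are near-identical copies between which reads may be split, so the value of each is uncertain. Ifi35 differed by 1.55 ± 0.08, adjusted p = 1.44e-07. Astrocytes were higher again for H2-K1, at 45.4, 51.4 and 39.5. The interferon-stimulated response element, GAAA, any 2 bases and GAAA again on either strand, was in 10 of 20 list genes with a window (50%) and in 301 of 8798 tested genes (3.42%). It is shown in the promoter of B2m, where 1 match begins 139 bases before the start site.
B2m, chr2:122147437-122147686, plus strand: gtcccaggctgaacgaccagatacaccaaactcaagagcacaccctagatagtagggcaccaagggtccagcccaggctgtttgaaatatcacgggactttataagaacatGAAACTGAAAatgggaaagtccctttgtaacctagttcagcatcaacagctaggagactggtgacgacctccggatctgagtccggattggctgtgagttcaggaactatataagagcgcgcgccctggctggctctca

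Inflammatory cytokine and NF-kB genes did not go with the interferon list: of 11 tested, 3 were called higher and 5 lower. The shares over all genes tested were 33.0% higher and 26.6% lower. Csf1, a macrophage growth factor, was higher (1.21 ± 0.06, adjusted p = 4.82e-08), whereas Cx3cl1 (-0.86 ± 0.09, adjusted p = 1.36e-05), Il33 (-0.6 ± 0.1, adjusted p = 0.000379), Vcam1 (-0.65 ± 0.13, adjusted p = 0.0014) and Nfkb1 (-0.37 ± 0.05, adjusted p = 0.00011) were lower and Nfkb2 higher (0.33 ± 0.06, adjusted p = 0.000677).

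Several further genes were among the widest differences. Aox1, an aldehyde oxidase, measured 44.2, 46.7 and 44.2 FPKM in MIM-Astrocytes and 1.09, 0.955 and 1.02 in NSC, a 44.1-fold higher mean (4.51 ± 0.05, adjusted p = 6.13e-12). Acot11, an acyl-CoA thioesterase gene, measured 25.6, 32.7 and 29 FPKM in MIM-Astrocytes and 1.47, 1.53 and 1.13 in NSC (3.66 ± 0.1, adjusted p = 2.46e-09). Gpd2, the mitochondrial glycerol phosphate dehydrogenase gene, measured 148, 145 and 148 FPKM in MIM-Astrocytes and 13.4, 14.7 and 11.5 in NSC (3.38 ± 0.08, adjusted p = 8.95e-10). Gria1, an AMPA receptor subunit from the ion channel list, measured 29.5, 30.6 and 31 FPKM in MIM-Astrocytes and 3.09, 1.17 and 2.38 in NSC (3.34 ± 0.18, adjusted p = 1.56e-07). Hspb8, a small heat shock protein gene, stood at 18.49, 19.3 and 17.8 FPKM against 0.852, 0.984 and 0.657, far under the 781, 877 and 709 of Astrocytes (3.42 ± 0.09, adjusted p = 1.6e-09). Apln, which encodes the peptide apelin, measured 13.6, 15 and 14 FPKM in MIM-Astrocytes and 0.606, 0.52 and 0.526 in NSC (3.29 ± 0.07, adjusted p = 3.86e-10). Chst2, a sulfotransferase gene, measured 111, 114 and 112 FPKM in MIM-Astrocytes and 13.2, 13.8 and 12.8 in NSC (2.98 ± 0.05, adjusted p = 1.86e-10). The annexin gene Anxa2 (23.7, 27.7 and 24.6 FPKM in MIM-Astrocytes and 2.22, 2.32 and 1.97 in NSC) and the tubulin gene Tubb6 (45.5, 56.8 and 53.2 FPKM in MIM-Astrocytes and 5.95, 5.78 and 5.13 in NSC) differed by 3.05 and 2.99. Islr, which is on the meningeal fibroblast list, the protease gene Mmp19 and Eva1a differed by 3.31 ± 0.09, adjusted p = 1.87e-09, 3.29 ± 0.1, adjusted p = 4.17e-09 and 2.94 ± 0.1, adjusted p = 7.2e-09. Hspb8, Apln, Mmp19 and Eva1a were below 1 FPKM in every NSC library, which fixed their direction. Aox1, Gpd2, Apln, Chst2 and Tubb6 were higher in the MIM cultures than in Astrocytes too, where they stood at 16.4, 17.3 and 16, 130.5, 135 and 128, 6.69, 6.79 and 5.72, 51.6, 54.6 and 49.3 and 19.2, 20.6 and 17.5.

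Among the widest lower genes, Rnase1, a secreted ribonuclease gene, measured 0.291, 0.315 and 0.281 FPKM in MIM-Astrocytes and 16.6, 14.7 and 13.5 in NSC (-3.62 ± 0.07, adjusted p = 3.96e-10). Fxyd6, a regulator of the sodium pump, measured 6.16, 6.95 and 6.26 FPKM in MIM-Astrocytes and 90.1, 87.4 and 73.4 in NSC (-3.5 ± 0.1, adjusted p = 2.86e-09). Sv2c, a synaptic vesicle gene, measured 0.424, 0.286 and 0.45 FPKM in MIM-Astrocytes and 8.41, 9.22 and 9.59 in NSC (-2.86 ± 0.07, adjusted p = 9.67e-10). Foxp2, a neuronal transcription factor, measured 0.762, 0.515 and 0.564 FPKM in MIM-Astrocytes and 9.71, 9.52 and 11.7 in NSC (-2.81 ± 0.11, adjusted p = 2.23e-08). Chd3, a chromatin remodeller, measured 3.68, 5.68 and 6.13 FPKM in MIM-Astrocytes and 40.5, 41.4 and 39.7 in NSC (-2.77 ± 0.14, adjusted p = 8.46e-08). Bmf, which promotes cell death, measured 0.983, 1.43 and 1.35 FPKM in MIM-Astrocytes and 15.2, 19 and 14.1 in NSC (-2.92 ± 0.14, adjusted p = 7.19e-08). Apcdd1, a Wnt inhibitor, and Spock2, a proteoglycan gene, differed by -2.76 ± 0.06, adjusted p = 7.36e-10 and -2.73 ± 0.09, adjusted p = 4.3e-09. The groups stood wholly apart in each of these genes because the naming rule required it. Over all genes tested this was so for 64.6%. Rnase1, Sv2c and Foxp2 were below 1 FPKM in every MIM-Astrocytes library, which fixed their direction.

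Wnt pathway genes were called about as often as all genes tested. Of 25 genes 9 were higher and 7 lower, beside 33.0% and 26.6% over all genes. Without the members below 1 FPKM in every library of a group, Wnt4 and Ror1 among them, 7 of 22 were higher and 6 lower. The ligands Wnt4 (4.93, 5.5 and 5.51 FPKM in MIM-Astrocytes and 0.82, 0.761 and 0.713 in NSC), Wnt7a (24.7, 45.1 and 39.1 FPKM in MIM-Astrocytes and 15.1, 12.3 and 15 in NSC) and Wnt5b (5.25, 6.39 and 5.96 FPKM in MIM-Astrocytes and 2, 1.77 and 1.85 in NSC) were higher by 1.84, 1.26 and 1.25, as were the receptors Lgr4 (1.04 ± 0.08, adjusted p = 2.31e-06) and Ror1 (0.6 ± 0.05, adjusted p = 3.55e-06). Fzd7, a receptor (-1.03 ± 0.05, adjusted p = 5.14e-08), and the feedback gene Nkd1 (-1.48 ± 0.07, adjusted p = 8.72e-08) were lower. Of 14 hedgehog pathway genes 6 were called lower and 2 higher, none by 2-fold on this scale. Without Hhip, below 1 FPKM in every MIM-Astrocytes library, 5 of 13 were lower and 2 higher. The receptor and target Ptch1 measured 22.4, 22.3 and 24.3 FPKM in MIM-Astrocytes and 41.4, 42.5 and 41.8 in NSC (-0.84 ± 0.09, adjusted p = 1.38e-05). Hhip (-0.99 ± 0.08, adjusted p = 2.64e-06), Cdon (-0.8 ± 0.07, adjusted p = 3.02e-06) and Kif7 (-0.51 ± 0.07, adjusted p = 9.69e-05) were lower. Gli3 (0.26 ± 0.07, adjusted p = 0.0078) and Evc (0.36 ± 0.1, adjusted p = 0.0105) were higher, the call for Gli3 being lost when mitochondrial genes and small RNAs were removed (adjusted p = 0.0951).

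Of 14 forebrain regional factors 2 were called higher and 3 lower, beside 33.0% and 26.6% of all genes tested. Without Gsx1, below 1 FPKM in every MIM-Astrocytes library, 2 of 13 were higher and 2 lower. Of the 4 tested hindbrain and posterior factors, Irx1, Irx2, Irx3 and Irx5, 0 were called in limma, and at most 1 in each direction in any alternative with the same genes. Sp8 was higher at 3.63, 3.81 and 3.7 FPKM in MIM-Astrocytes and 1.92, 2.11 and 1.82 in NSC (0.68 ± 0.06, adjusted p = 3.67e-06). Zic1 was lower at 10.7, 18.1 and 17.2 FPKM in MIM-Astrocytes and 23.3, 26.6 and 22.2 in NSC (-0.65 ± 0.16, adjusted p = 0.00591), with MIM-Astrocytes replicate 1 below the other 2. Tcf4 (-0.35 ± 0.07, adjusted p = 0.00103) and Gsx1 (-0.26 ± 0.06, adjusted p = 0.00292) were slightly lower and Otx1 slightly higher (0.28 ± 0.07, adjusted p = 0.0081). The calls for Tcf4 and Otx1 were each lost under 1 rescaling (adjusted p = 0.0703 and 0.065).

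Imprinted genes, expressed from 1 parental copy, were mostly lower: 17 of 23 were called lower, 5 at least 2-fold, and 3 higher (median -0.45), or 14 of 20 and 3 without those below 1 FPKM in every MIM-Astrocytes library, among them Grb10. Grb10, an adaptor that restrains insulin signalling, measured 0.298, 0.373 and 0.894 FPKM in MIM-Astrocytes and 9.43, 10.8 and 8.15 in NSC (-2.79 ± 0.14, adjusted p = 6.96e-08), with MIM-Astrocytes replicate 3 above the other 2. Nnat measured 117, 155 and 141 FPKM in MIM-Astrocytes and 786, 802 and 657 in NSC (-2.44 ± 0.13, adjusted p = 1.16e-07). Peg3 measured 20.5, 22.9 and 21.7 FPKM in MIM-Astrocytes and 49.6, 48.8 and 48.2 in NSC (-1.14 ± 0.05, adjusted p = 5.44e-08). Mest measured 54.3, 59.8 and 56.3 FPKM in MIM-Astrocytes and 109.96, 114 and 106 in NSC (-0.94 ± 0.1, adjusted p = 1.24e-05). Cdkn1c, given with the cell cycle inhibitors, is a further member. Impact (0.42 ± 0.06, adjusted p = 0.000195) and Gnas (0.27 ± 0.09, adjusted p = 0.0272) were higher. The call for Gnas was lost without NSC replicate 3 (0.0931), without MIM-Astrocytes replicate 2 (0.0899), without MIM-Astrocytes replicate 3 (0.0883), with the block (0.127) and in the 6 libraries alone (0.0824), all as adjusted p.

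Matrix genes went both ways. For comparison, 33.0% of all genes tested were called higher and 26.6% lower. Of 18 brain proteoglycan genes 9 were called higher and 6 lower. The cell surface syndecans and glypicans Sdc4 (94.2, 102 and 95.5 FPKM in MIM-Astrocytes and 23.1, 21.5 and 20.5 in NSC), Sdc2 (26, 26.3 and 24.7 FPKM in MIM-Astrocytes and 6.29, 6 and 5.58 in NSC) and Gpc4 (14.4, 11.4 and 12.6 FPKM in MIM-Astrocytes and 1.82, 1.91 and 2.04 in NSC) were higher by 2.11, 1.94 and 2.23, and Ogn differed by 1.93 ± 0.07, adjusted p = 1.25e-08. Gpc2, a glypican of immature neurons, was lower (-1.21 ± 0.09, adjusted p = 1.43e-06). Among 24 extracellular matrix, contractile and YAP target genes 11 were called higher and 9 lower: the integrin gene Itgav (1.41 ± 0.1, adjusted p = 9.81e-07), Sparc (1.38 ± 0.1, adjusted p = 1.25e-06), Thbs1 (0.69 ± 0.05, adjusted p = 1.67e-06) and Timp3 (0.65 ± 0.05, adjusted p = 2.12e-06) were higher, and the basement membrane collagen gene Col4a1 was lower at 8.09, 9.46 and 8.9 FPKM in MIM-Astrocytes and 36.2, 37.1 and 28.9 in NSC (-1.83 ± 0.1, adjusted p = 1.19e-07). Sparc and Thbs1 were far below Astrocytes, at 172, 198 and 198 against 1273, 1400.3 and 1156 FPKM and 1.76, 1.87 and 1.99 against 176, 185 and 177.

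Ion channel and receptor genes were split almost evenly, with 13 of 34 called higher and 14 lower, or 12 and 11 of 30 without the members below 1 FPKM in every library of a group. The shares over all genes tested were 33.0% and 26.6%. Besides Kcnj10 and Gria1, the GABA receptor subunit Gabrb1 was higher at 3.4, 3.57 and 3.25 FPKM in MIM-Astrocytes and 0.231, 0.335 and 0.195 in NSC (1.81 ± 0.06, adjusted p = 4.67e-09). Kcnd2 (5.73, 5.81 and 5.75 FPKM in MIM-Astrocytes and 20.8, 20.7 and 19.3 in NSC) and Kcnk2 (2.56, 2.21 and 2.34 FPKM in MIM-Astrocytes and 9.01, 9.4 and 8.66 in NSC), both potassium channels, differed by -1.65 and -1.57. The kainate receptor subunits Grik3 (-1.54 ± 0.06, adjusted p = 1.15e-08) and Grik4 (-0.59 ± 0.05, adjusted p = 6.21e-06) were lower. Gabrb1 was below 1 FPKM in every NSC library, and Grik3 and Grik4 in every MIM-Astrocytes library, which fixed their direction.

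The genes for the cytosolic ribosome and those for mitochondria went in opposite directions. These families, drawn by symbol after the values were seen, are described without a test. Of 76 cytosolic ribosomal protein genes 64 were called lower, 17 at least 2-fold, and 1 higher, with a median of -0.78. Over the 17 alternatives with the same genes the median stayed between -0.87 and -0.62. Rplp0 measured 358, 471 and 429 FPKM in MIM-Astrocytes and 1034, 982 and 875 in NSC (-1.21 ± 0.12, adjusted p = 1.54e-05). Rps12 measured 36, 37.3 and 23.7 FPKM in MIM-Astrocytes and 112, 107 and 89.2 in NSC (-1.66 ± 0.2, adjusted p = 5.28e-05), with Rps2 the exception at 140.02, 178 and 153 FPKM in MIM-Astrocytes and 124, 107 and 85.4 in NSC (0.58 ± 0.15, adjusted p = 0.00816). Rpl3 measured 156, 188 and 176 FPKM in MIM-Astrocytes and 177, 186 and 168 in NSC (interval -0.24 to 0.18). Many of these genes have processed pseudogenes with near-identical sequence, so the value of a single gene is uncertain. The hosts of small nucleolar RNAs, which share with ribosomal protein genes a start sequence controlled at translation, were lower in 10 of 13 cases and higher in 1 (median -0.71), with Zfas1 at 22, 22.7 and 18.2 FPKM in MIM-Astrocytes and 72.6, 70.4 and 56.8 in NSC (-1.62 ± 0.13, adjusted p = 2.22e-06). Gas5 measured 129.6, 150.1 and 126 FPKM in MIM-Astrocytes and 302, 293 and 251 in NSC (-1.05 ± 0.12, adjusted p = 3.74e-05), and the host Snhg3 went the other way (0.82 ± 0.13, adjusted p = 0.000284). The 263 tested small nucleolar RNAs had a median of -0.43, with 34 called lower, 6 higher and 223 not called. They were thus called less often in either direction than all genes tested, of which 26.6% were lower and 33.0% higher. FPKM of such short genes is uncertain.

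Mitochondrial genes were higher. Of 75 mitochondrial ribosomal protein genes 50 were called higher and 1 lower (median 0.42), of 36 subunits of respiratory complex I 33 were higher and 0 lower in limma (median 0.76), and of 15 ATP synthase subunits 14 were higher and 0 lower (median 0.88). Atp5g1 measured 133, 156 and 143 FPKM in MIM-Astrocytes and 48, 50.1 and 40.9 in NSC (1.62 ± 0.12, adjusted p = 1.45e-06). Ndufb6 measured 89.2, 95.2 and 77.9 FPKM in MIM-Astrocytes and 39.9, 41.8 and 31.4 in NSC (1.2 ± 0.15, adjusted p = 5.33e-05). Mrpl12 measured 18.8, 19.4 and 19.4 FPKM in MIM-Astrocytes and 7.74, 7.98 and 6.18 in NSC (1.29 ± 0.09, adjusted p = 8.3e-07). Among the 13 protein genes of the mitochondrial genome itself 6 were called higher and 0 lower (median 0.36). mt-Nd4 measured 392, 308 and 377 FPKM in MIM-Astrocytes and 207, 186 and 213 in NSC (0.82 ± 0.14, adjusted p = 0.000659). mt-Nd5 measured 408, 313 and 393 FPKM in MIM-Astrocytes and 214, 189 and 203 in NSC (0.87 ± 0.16, adjusted p = 0.000965), while mt-Nd4l (0.83 ± 0.12, adjusted p = 0.000173) and mt-Cytb (0.42 ± 0.11, adjusted p = 0.00557) were also higher, the call for mt-Cytb being lost with the block (adjusted p = 0.0684). Glutathione S-transferase genes were higher in 10 of 13 cases and lower in 0 (median 0.96), with Gstm1 at 758, 945 and 896 FPKM in MIM-Astrocytes and 254, 227 and 205 in NSC (1.91 ± 0.12, adjusted p = 4.75e-07). Gstt1 measured 28.3, 38.3 and 35.1 FPKM in MIM-Astrocytes and 6.36, 5.82 and 5.31 in NSC (2.35 ± 0.11, adjusted p = 6.03e-08). Zinc finger genes named Zfp were the widest family on the lower side by number, with 172 of 317 called lower and 29 higher, but only 4 of them at least 2-fold (median -0.27).

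**Figure D5:**
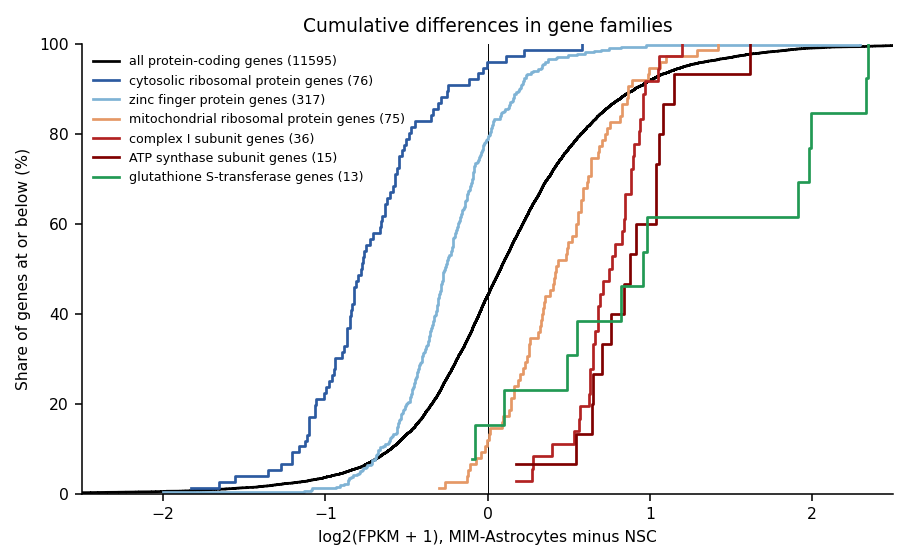
Share of the genes of a family (vertical axis, %) at or below each difference (horizontal axis, log2(FPKM + 1), MIM-Astrocytes minus NSC), with all 11595 protein-coding genes in black. The curve of cytosolic ribosomal protein genes lies to the left of the black curve around a median of -0.78, and those of complex I and ATP synthase subunits lie to its right around 0.76 and 0.88.

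Markers of other cell types were few. Of 20 microglia and macrophage genes 2 were tested. One of them, Cd68, was at 1.12, 1.38 and 1.15 FPKM in MIM-Astrocytes and 1.82, 1.52 and 1.75 in NSC (not called, interval -0.55 to -0.02, but called lower in 5 alternatives). Cd68 is also expressed by other brain cells. Of the endothelial and mural list the 2 tested genes were Notch3 and Cspg4 (-0.51 ± 0.07, adjusted p = 0.000197), which neural progenitors express as well. Of 20 meningeal fibroblast genes 6 were tested, 4 higher and 1 lower. Nupr1, Ogn and Foxc1 were below 1 FPKM in every NSC library, which fixed their direction, and of the other 3 tested genes 1 was higher (Islr) and 1 lower. Foxc1 was at 1.19, 1.26 and 1.22 FPKM in MIM-Astrocytes and 0.457, 0.501 and 0.436 in NSC (0.6 ± 0.06, adjusted p = 8.99e-06), Pdgfra was lower, and the collagens Col1a1, Col1a2 and Col3a1 did not reach the minimum level. Of 32 genes of motile cilia 23 were not tested, 5 were higher and 1 lower. Among them Rsph1, Zmynd10, Dnaic2 and Dnaic1 were below 1 FPKM in every NSC library, and of the other 5, 2 were higher and 1 lower. Foxj1, their master factor, measured 9.58, 12 and 11.6 FPKM in MIM-Astrocytes and 2.31, 2.41 and 2.1 in NSC (1.88 ± 0.09, adjusted p = 7.96e-08). Rsph1 measured 1.72, 1.84 and 1.56 FPKM in MIM-Astrocytes and 0.161, 0.133 and 0.187 in NSC (1.22 ± 0.08, adjusted p = 6.43e-07). Zmynd10 measured 1.52, 2.25 and 2 FPKM in MIM-Astrocytes and 0.352, 0.201 and 0.363 in NSC (1.16 ± 0.15, adjusted p = 7.06e-05), Dnaic2 differed by 0.39 ± 0.11, adjusted p = 0.0112, and Ccdc39 was lower (-0.36 ± 0.1, adjusted p = 0.00846, lost at a common total with an adjusted p of 0.0532). Summed levels cover only the tested members of each list. They were 23.3 to 24.9 FPKM in MIM-Astrocytes and 26.8 to 30.1 in NSC for the 2 microglia genes. For the 2 endothelial and mural genes they were 15.2 to 18.1 and 12 to 12.9. The 6 meningeal genes summed to 88.4 to 106.4 and 88.8 to 102.7. The 9 cilium genes summed to 40.2 to 46.7 and 31.0 to 32.6. The part of such cells in other differences was not tested.

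Most pluripotency genes did not reach the minimum level in either group. Of 27 listed, 4 were tested, among them Sox2, and the other 3 were lower. Klf4 was below 1 FPKM in every MIM-Astrocytes library, which fixed its direction. Without it, 2 of 3 tested genes were lower. Klf4 measured 0.204, 0.173 and 0.223 FPKM in MIM-Astrocytes and 2.32, 1.51 and 1.57 in NSC (-1.21 ± 0.11, adjusted p = 7.39e-06). Mycl measured 6.5, 7.54 and 6.41 FPKM in MIM-Astrocytes and 15.4, 14.8 and 13.3 in NSC (-0.99 ± 0.09, adjusted p = 7.62e-06). Myc measured 3.94, 3.88 and 4.44 FPKM in MIM-Astrocytes and 6.48, 8.32 and 6.58 in NSC (-0.67 ± 0.09, adjusted p = 7.33e-05). Pou5f1 (Oct4) did not reach the minimum, at 0.142, 0.0895 and 0.0598 FPKM in MIM-Astrocytes and 0.0829, 0.0804 and 0.132 in NSC, nor did Nanog at 0.136, 0.147 and 0.0928 and 0.132, 0.109 and 0.168.

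Chromosomes differed little, but the differences shifted with gene length. On the autosomes the median difference ran from -0.037 on chromosome 13 to 0.105 on chromosome 19. Among protein-coding genes the fifth with the shortest exonic sequence (up to 2595 bases) had a median of 0.192, with 1005 called higher and 455 lower of 2319, and the fifth with the longest (from 7956 bases) had -0.035, with 743 and 838 of 2318. The 3 classes between them had medians of 0.14, 0.082 and 0.022, in order of length. The part of length in the lists above was not tested. Gene families were not compared by length.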

How the data were processed

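RNA sequencing libraries of 4 groups with 3 libraries each were read from the deposited gene tables. The values are FPKM that the authors computed with Cufflinks on GRCm38, per the submitters' processing notes; the annotation file, the strand setting and the aligner are not given in the sources used here, and 99.88% of the identifiers matched GENCODE release 21 for mouse. No read counts were used, so no count model could be fitted. Identifiers on several lines (45) were summed, and values without the status OK in the deposited tables were treated as missing, which left out 40 identifiers. For 3 tested genes a value outside the 6 compared libraries was missing.

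Genes reaching 1 FPKM in at least 3 of the 6 libraries were kept, and log2(FPKM + 1) was fitted with limma 3.58.1 (R 4.3.3, trend option), 1 mean per group over all 12 libraries, which share 1 estimate of the spread. P-values were adjusted by Benjamini-Hochberg over 15110 genes. An exact permutation test of 3 libraries against 3 cannot go below 0.1 and was not used. The FPKM minimum, pseudocount, scaling, libraries entering the fit, replicate block, array weights and each left-out replicate were varied in 19 alternatives. On simulated data, 93.5% of 200 genes changed by 1 on the log2 scale were recovered, with 6 false calls among 15107 genes. There only these 200 genes differed, the noise was independent for each value, and no library was shifted as a whole. In the data 59.5% of genes were called, so the false calls do not measure the error among those calls. The comparison and the 40 gene lists were chosen with earlier results of these data known. Genes named in the text are the 15 largest called differences each way among non-overlapping genes at 5 FPKM or more in the higher group, up to 4 called members of each list with the smallest p in its main direction and up to 2 in the other, and a set of markers given whatever their result; unnamed gene models, pseudogenes, small RNAs and histone copies were left out of the first. Some genes chosen by this rule are not reported here. A further 50 genes, the gene families and the promoters shown were chosen after their values were seen. Figures were drawn with matplotlib 3.10.9. Intervals cover the spread between libraries only.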

Additional observations from a re-analysis of the deposited data

How the results depend on the processing

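Under the alternatives that kept the same 15110 genes, limma called between 8115 and 9851 genes, against 8996, and no call changed its direction in any of the 19 alternatives. With a mean of at least 5 FPKM required, 6135 of 9901 genes were called, 2517 of them lower (4012 in the fit as reported) and 392 lower by at least 2-fold (616); fewer genes entered that fit. Without a filter on low values, 11153 of 35093 were called. With a pseudocount of 0.1 the genes lower by at least 2-fold numbered 939, since a smaller pseudocount shrinks low genes less. Leaving out 1 library at a time gave 8308 to 8566 calls, and 1650 to 1726 at least 2-fold apart. With the replicate number as a block, 8115 genes were called, 7808 of them shared with the fit without it. The labels do not say that a number marks a shared culture. Deviations of same-numbered MIM-Astrocytes and NSC libraries from their group means correlated at -0.067, 0.056 and -0.021. With means of 3 libraries, these values cannot decide whether the numbers pair the libraries. Scaling moved the share of calls that were higher from 55.4% to between 48.8% and 61.9%, and the median of all genes from 0.025 to between -0.037 and 0.077. Of 228 genes that the naming rule chose and that were tested, 17 changed their call in some alternative and 0 reversed. List medians changed sign without the filter for NF-kB genes (-0.177 to 0.008), proteoglycans (0.347 to -0.005), endothelial and mural genes (0.255 to -0.015) and meningeal genes (1.265 to -0.008), and at a mean of 5 FPKM for axon guidance genes (-0.474 to 0.013) and meningeal genes (-0.09); these fits hold other members of each list. In all, 11 of the 40 list medians changed sign in some alternative. The remaining 6 (neural stem, EGF and FGF, Wnt, hindbrain, ion channel, and X and Y genes) lay between -0.064 and 0.069 and moved to between -0.049 and 0.132 under a scaling, a filter, array weights or a left-out library, the Wnt median to 0.132 at a mean of 5 FPKM. The upper end of the authors' intervals lay 8.66% to 10.15% above values near 10 FPKM, as the median of a library. Near 1 FPKM it lay 27.64% to 31.1% above, which limits what can be read from low genes.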
